A study of Homo sapiens with 8 samples.

Results

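The Krüppel-like factors (KLFs) examined here are 10 transcription factor genes, KLF2, KLF3, KLF4, KLF5, KLF6, KLF7, KLF9, KLF10, KLF11 and KLF13, chosen by their symbols from among 58688 genes counted in LM2 cells. All 10 were matched to a gene ID in the count files, and all 10 passed the filter on low counts. LM2 is a derivative of the MDA-MB-231 triple negative breast cancer line that was selected for metastasis to the lung, and the cells used carry a luciferase gene. In one experiment LM2 cells received the kinase inhibitor Ponatinib (6 h, 1 µM) or the solvent DMSO, with 2 samples each. In the other, LM2 lines were made with lentivirus and selected with puromycin. They carried a scrambled short hairpin RNA (shCtrl), an ABL1 shRNA, an ABL2 shRNA or both, with 1 sample each. Each ABL gene was targeted by a single hairpin sequence, and all lines were grown in DMEM with serum. The comparisons ask which KLF genes respond to Ponatinib and whether lowering ABL1 or ABL2, kinases that Ponatinib inhibits, is accompanied by the same changes.

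KLFs bind GC-rich and CACCC-type DNA through a conserved row of zinc fingers at the C-terminus, and differ in the part before it. KLF2, KLF4, KLF5, KLF6 and KLF7 are mostly known as activators that bind acetyltransferases, KLF3 is a repressor that recruits the CtBP corepressors, and KLF9, KLF10, KLF11 and KLF13 carry a domain that binds the SIN3A corepressor. Several of them are early response genes whose mRNA follows growth factor, shear stress or steroid signals within hours, and in epithelial tumors they are known as regulators of proliferation and differentiation. SP factors share the same type of zinc fingers and can bind the same sites.

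The starts of KLF2 and KLF9 are shown first, because these genes had the largest fall and the largest rise of the 10 after Ponatinib treatment. Each line gives the 250 bases before the gene start from RefSeq on GRCh38.p14, read 5′ to 3′ on the strand of the gene, at chr19:16324576-16324825 on the plus strand for KLF2 and at chr9:70414658-70414907 on the minus strand for KLF9. The genes themselves lie at chr19:16324826-16328685 and chr9:70384604-70414657. The capitals mark a MEF2 site in KLF2 and CCAAT boxes, on the opposite strand, in KLF9. GC boxes (GGGCGG) were also searched but are not capitalized, and the KLF2 window holds 4.
KLF2: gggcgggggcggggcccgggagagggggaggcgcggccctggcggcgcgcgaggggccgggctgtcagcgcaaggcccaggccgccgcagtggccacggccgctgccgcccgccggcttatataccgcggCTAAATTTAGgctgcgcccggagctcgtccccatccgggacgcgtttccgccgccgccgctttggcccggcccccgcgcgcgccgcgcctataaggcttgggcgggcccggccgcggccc
KLF9: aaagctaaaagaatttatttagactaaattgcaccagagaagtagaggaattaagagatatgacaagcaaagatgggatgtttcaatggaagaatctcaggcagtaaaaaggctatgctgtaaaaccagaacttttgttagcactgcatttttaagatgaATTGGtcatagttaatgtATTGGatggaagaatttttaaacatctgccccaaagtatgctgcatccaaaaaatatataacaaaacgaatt
The KLF2 window was 80.0% G or C and that of KLF9 32.4%, around a median of 58.0% over 34943 promoter windows of the same length. The MEF2 letters stand 120 to 111 bases before the start of KLF2, and 2.81% of all windows hold such a site. MEF2 factors are known activators of KLF2 downstream of the kinase ERK5. The CCAAT boxes of KLF9, at 90 to 86 and at 72 to 68 bases before the start, are a motif of 32.0% of all windows. RefSeq windows were matched for 8 of the 10 genes (13 windows, since some genes have several starts), with no entry for KLF3 and KLF10. None of the 13 held the AP-1 letters TGANTCA, which 6.59% of all windows hold, or the FOXO letters GTAAACA, which 2.98% hold, searched on both strands. The CRE letters TGACGTCA stood only in a window of KLF11, against 1.63% of all windows, and a CArG box, the site of SRF, only in a window of KLF7, against 1.16%. GC boxes stood in 8 of the 13 windows, against 42.5% of all windows, and CACCC boxes in 6, against 54.7%. The ETS letters CCGGAA stood in 0 of the 13, against 14.5%. No capitalized motif overlapped another motif searched, and a match of letters does not show that a factor binds there.

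Counts on genes summed to between 7568934 and 13010896 per sample. Levels are given as CPM, a gene's counts relative to the total on genes, scaled by edgeR's TMM factors within each experiment, and 3 counts equal 0.231 to 0.389 CPM. Treatment was not the only difference between the experiments, as 68 genes lacked any count in the shRNA libraries but reached 100 counts or more in each library of the DMSO and Ponatinib experiment, so levels were compared only within an experiment. Vimentin (VIM) was high in every sample, while the estrogen receptor ESR1 had 3 to 11 counts and the progesterone receptor PGR none, and the immune markers PTPRC, CD3E and CD68 had at most 4 counts. ERBB2 was at 53.6 to 66.8 CPM. The endothelial marker PECAM1 was at 2.34 to 3.98 CPM in the DMSO and Ponatinib samples and at 20.5 to 39.6 in the shRNA samples, where the other endothelial marker CDH5 had at most 3 counts. COL1A1, a fibroblast marker, was at 406 CPM in shCtrl and at 99.0 to 227 with the ABL hairpins, and its part in the differences from shCtrl was not tested. EPCAM was at 5.01 to 11.9 CPM, and KRT18 and KRT8 ranged from 144 to 806 CPM.

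Per kilobase of merged exons, KLF6 stood highest of the 10 in DMSO, at 33.1 ± 0.9 CPM per kb (SD, n = 2), followed by KLF4 at 20.2 ± 0.4, KLF10 at 16.1 ± 1.0, KLF2 at 15.4 ± 0.4 and KLF5 at 13.5 ± 0.2. KLF13 (6.78 ± 0.36), KLF3 (4.66 ± 0.34), KLF11 (3.13 ± 0.08), KLF9 (1.98 ± 0.13) and KLF7 (1.44 ± 0.02) formed the lower end. The DMSO values of KLF10 (15.4 and 16.8) and KLF2 (15.1 and 15.7) overlapped, and no other neighbours in this order did. With Ponatinib, KLF4 (28.5 and 29.4) and KLF6 (26.8 and 28.8) overlapped at the top, and KLF6 had the higher mean of the pair per kilobase of the canonical transcript (37.2 against 36.1). KLF2 was at 7.98 ± 0.03, below KLF3 at 9.13 ± 0.78. In shCtrl, KLF6 (44.5 CPM per kb) was again highest, and KLF2 (6.36) stood below KLF9 (7.38).

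**Figure D1:**
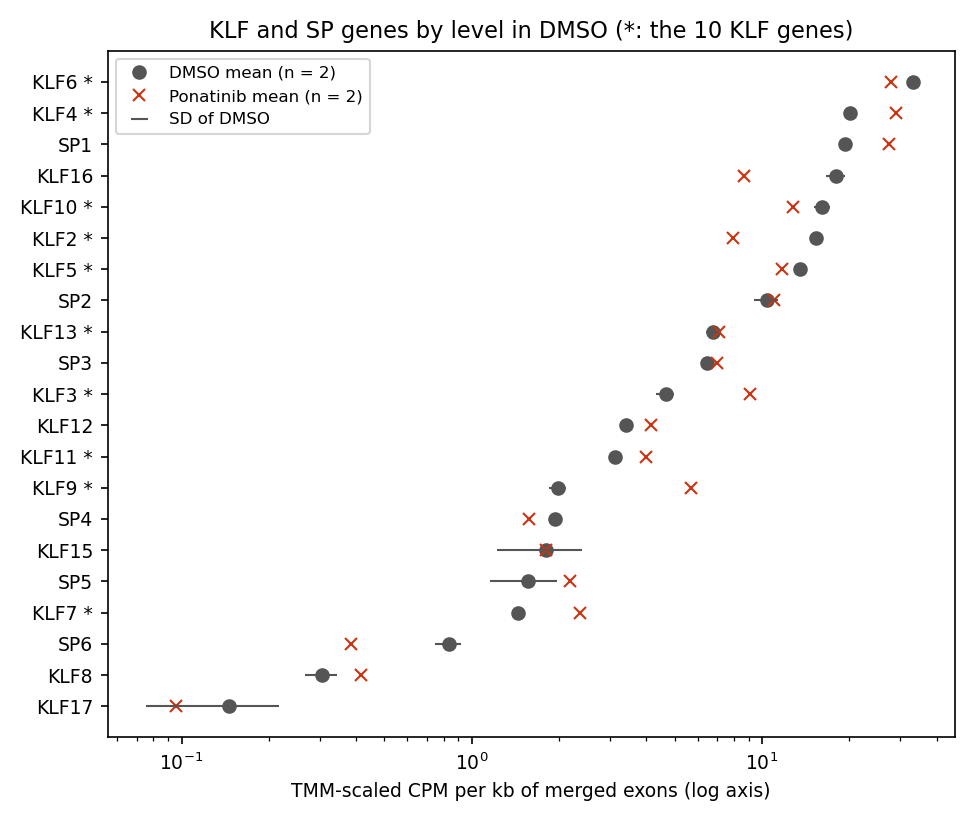
Levels of the KLF and SP genes with at least 0.1 CPM per kb in DMSO, as TMM-scaled CPM per kb of merged exons (log axis), with DMSO means as grey points with their SD and Ponatinib means as red crosses. KLF6 is highest in DMSO at 33.1, and the crosses of KLF9, KLF3 and KLF7 lie to the right of their points while those of KLF2 and KLF16 lie to the left.

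After Ponatinib treatment, KLF9, KLF3, KLF7 and KLF4 rose and KLF2, KLF10 and KLF6 fell, taking as the threshold a Benjamini-Hochberg adjusted p of 0.05 from the quasi-likelihood test of edgeR over 16031 genes. That is 7 of the 10 genes, beside 30.7% of all genes tested. Of the 10 genes 4 rose, beside 15.0% of all genes, and 3 fell, beside 15.7%. By a call rule of more than 2-fold at p under 0.05 before adjustment, only KLF9 of the 10 was called, beside 5.48% of all genes. The methods of the study state the same fold and p limits, but the study reports fewer genes for Ponatinib than were called here. The call set of the study was thus not reproduced, and the cause of the difference was not tested. Nothing in the labels says that the 2 samples of a group were separate cultures, so these p-values measure only the spread between them, and in such bulk samples fewer expressing cells and less RNA per cell cannot be told apart. The DMSO and Ponatinib samples did not overlap in 9 of the 10 genes, beside 64.9% of all genes tested. The median log2 fold change of the 10 genes was 0.21 and that of all genes tested -0.0047.

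**Figure D2:**
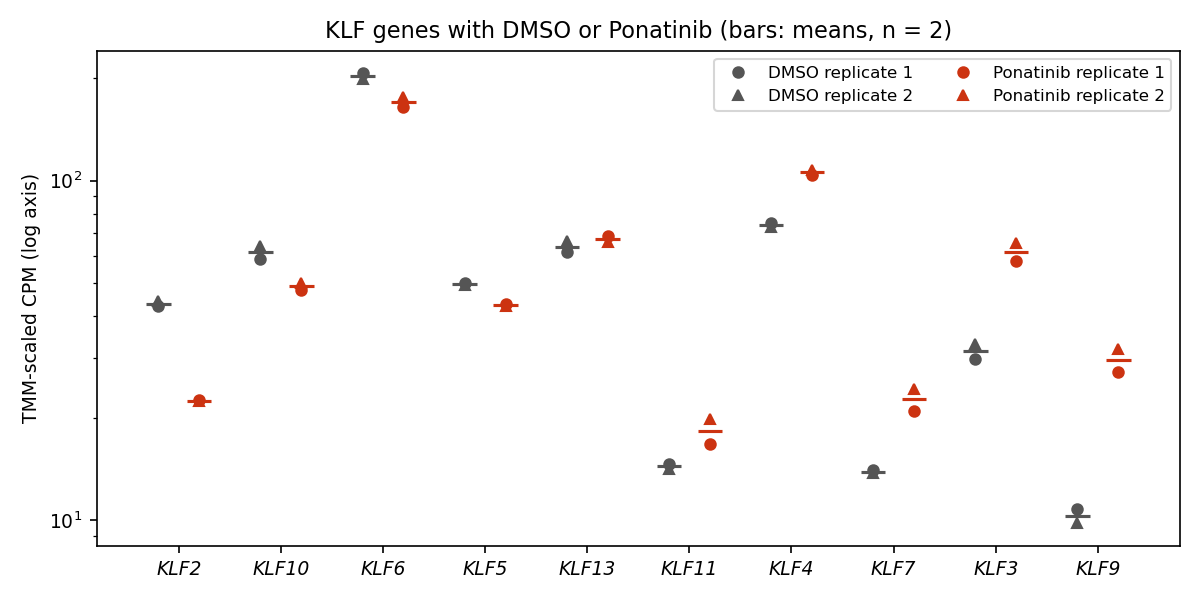
TMM-scaled CPM (log axis) of the 10 KLF genes in the 2 DMSO and 2 Ponatinib samples, ordered by their change, with bars at the group means. KLF2 goes from 43.4 to 22.5 at the left end and KLF9 from 10.3 to 29.6 at the right end, and the samples of the groups overlap in KLF13.

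Among the activators, KLF2, known as a factor of quiescence in endothelial and T cells, was at 42.6 and 44.1 CPM in the DMSO samples and at 22.6 and 22.5 in the Ponatinib samples. The samples of each group lay close together and the groups did not overlap. The log2 fold change was -0.94 (SE 0.09, edgeR adjusted p = 2.18e-06), or 1.93-fold lower with Ponatinib. Here and below, the SE is derived from the F statistic of the edgeR test. KLF4, a pluripotency factor that also promotes epithelial differentiation, moved the other way, from 74.9 and 73.0 CPM to 104 and 108. Its log2 fold change was 0.52 (SE 0.07, edgeR adjusted p = 3.23e-05). KLF7, best known from neuronal development, was a low gene with 136 to 221 counts per sample, at 14.0 and 13.7 CPM with DMSO and 21.0 and 24.4 with Ponatinib. This is a log2 fold change of 0.70 (SE 0.13, edgeR adjusted p = 0.000643). KLF6, which is expressed in most tissues and induced by injury, was at 207 and 199 CPM and fell to 165 and 177. The difference was small beside the others, with a log2 fold change of -0.25 (SE 0.06, edgeR adjusted p = 0.00752), and did not pass without either DMSO sample (edgeR adjusted p = 0.162 without replicate 1 and 0.0637 without replicate 2). KLF5, a pro-proliferative factor of basal epithelia, was at 50.1 and 49.2 CPM with DMSO and at 43.4 and 42.7 with Ponatinib, and its log2 fold change of -0.20 (SE 0.08, edgeR adjusted p = 0.0672) missed the threshold.

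KLF3, the CtBP-binding repressor of the 10, was at 29.9 and 33.1 CPM in DMSO and at 58.1 and 65.6 with Ponatinib. Both treated samples stood well above both controls, with a log2 fold change of 0.97 (SE 0.09, edgeR adjusted p = 1.36e-06), 1.96-fold and so just under the 2-fold line. The antisense gene KLF3-AS1, which overlaps 3.91% of the exon length of KLF3, had 3 to 9 counts in any sample.

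Among the SIN3A-binding members, KLF9, a glucocorticoid-induced repressor, had the largest change of the 10. It was at 10.8 and 9.80 CPM with DMSO and at 27.3 and 31.9 with Ponatinib. The log2 fold change was 1.51 (SE 0.13, edgeR adjusted p = 4.89e-07), or 2.85-fold higher. KLF10, an early response gene of TGF-β signaling, was at 58.8 and 64.3 CPM and fell to 47.7 and 49.98. Its log2 fold change was -0.34 (SE 0.08, edgeR adjusted p = 0.00526), which did not pass without DMSO replicate 2 (edgeR adjusted p = 0.119). KLF11, its closest relative, had the opposite sign, at 14.7 and 14.1 CPM with DMSO and 16.8 and 19.9 with Ponatinib. The log2 fold change of 0.33 (SE 0.13, edgeR adjusted p = 0.0683) missed the threshold, but passed it without Ponatinib replicate 1 (0.47, edgeR adjusted p = 0.00802). KLF13, an activator of CCL5 in T cells, was at 61.5 and 66.4 CPM with DMSO and 68.6 and 66.1 with Ponatinib, with overlapping groups and a log2 fold change of 0.08 (SE 0.07, edgeR adjusted p = 0.468).

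The remaining KLF and SP genes gave 16 that were in the files, of which 10 were tested, 2 rose, 2 fell and 6 did not pass the test, with a median log2 fold change of 0.09. Over all genes tested 15.0% rose and 15.7% fell. KLF16, another SIN3A-binding factor, was at 50.6 and 56.5 CPM with DMSO and 24.3 and 27.1 with Ponatinib. Its log2 fold change of -1.06 (SE 0.10, edgeR adjusted p = 9.11e-07) was close in size to that of KLF2. SP6, a factor of tooth and skin development, fell by 1.14 on the log2 scale (SE 0.30, edgeR adjusted p = 0.00909) from a low level, with 31 to 41 counts in DMSO and 13 to 15 with Ponatinib. SP1, the widely expressed founder of the SP group, rose from 153 and 159 CPM to 213 and 230, a log2 fold change of 0.50 (SE 0.06, edgeR adjusted p = 3.15e-05). KLF12, a relative of KLF3 that also recruits CtBP, rose less, by 0.28 (SE 0.09, edgeR adjusted p = 0.0287). KLF1, KLF14, SP7 and SP8 had no count in any of the 8 samples, SP9 had at most 2 and KLF17 at most 7. KLF8 (0.44), KLF15 (-0.02), SP2 (0.08), SP3 (0.11), SP4 (-0.30) and SP5 (0.47) did not pass the test, with edgeR adjusted p from 0.142 to 0.96, and were named after their values were seen.

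In the knockdown experiment the targeted genes came first. In the scrambled control ABL1 reached 190 CPM (182 to 198, a 95% Wilson interval for counting error only), beside 72.8 in the ABL1 shRNA line (68.3 to 77.6), 203 in the ABL2 shRNA line and 109 in the line with both. ABL2 reached 236 CPM in the control (227 to 245), 213 in the ABL1 shRNA line, 93.5 in the ABL2 shRNA line (88.3 to 99.0) and 148 in the line with both. Each target was lower where its hairpin was present, and less so in the line with both hairpins. In the other experiment, ABL2 mRNA also fell with Ponatinib, from 334 and 305 CPM to 147 and 169. This is a log2 fold change of -1.02 (SE 0.07, edgeR adjusted p = 8.56e-08). ABL1 rose slightly with Ponatinib, by 0.19 (SE 0.06, edgeR adjusted p = 0.0287). The shCtrl and ABL1 shRNA files carry each other's name in a header cell, and the ABL1 values go with the sample labels, which were used. With 1 sample per line there is no replicate check and no p is given. All knockdown comparisons share the single shCtrl sample, in which 339 of 16329 genes differed by more than 2-fold from each of the other 3 lines, against 118 for ABL1 shRNA, 175 for ABL2 shRNA and 70 for both.

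**Figure D3:**
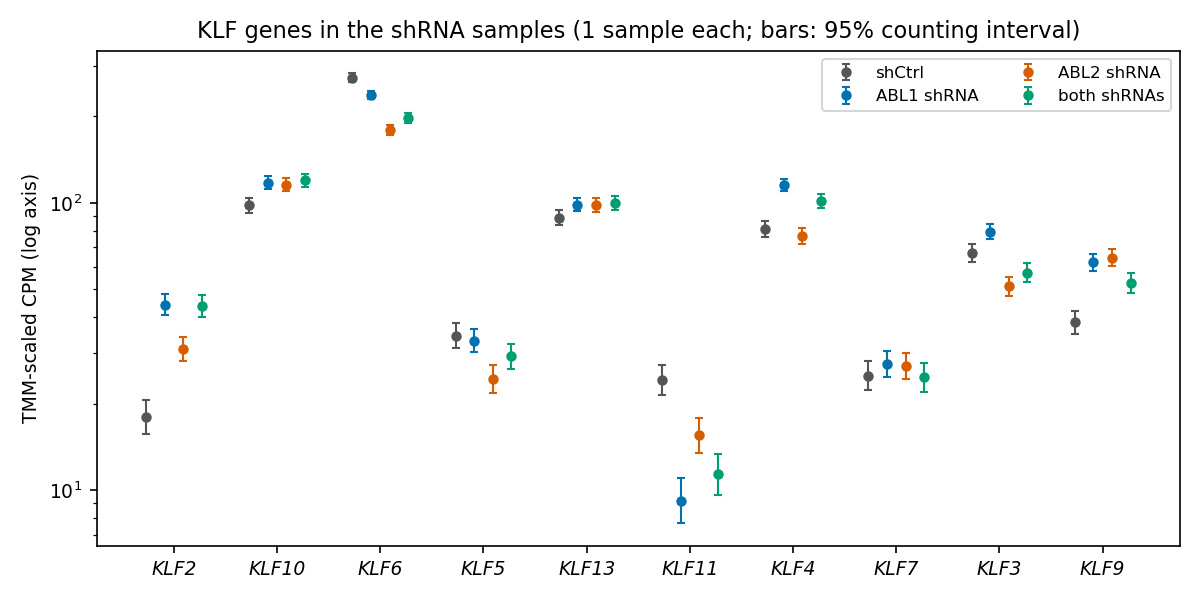
TMM-scaled CPM (log axis) of the 10 KLF genes in the shCtrl, ABL1 shRNA, ABL2 shRNA and double knockdown samples, with 95% Wilson intervals that cover counting error only. For KLF2 the shCtrl point at 17.9 lies below the other 3, and for KLF11 the shCtrl point at 24.2 lies above them.

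KLF2 and KLF11 were over 2-fold from shCtrl in both lines with the ABL1 hairpin. The shCtrl level of KLF2 was 17.9 CPM, and it was 44.2 in the ABL1 shRNA line, 31.0 in the ABL2 shRNA line and 43.7 in the double knockdown. All 3 hairpin lines were above shCtrl, by log2 ratios of 1.30 (95% counting interval 1.07 to 1.54), 0.79 (0.54 to 1.04) and 1.29 (1.05 to 1.53). KLF11 showed the reverse, with 24.2 CPM in shCtrl beside 9.17 in the ABL1 shRNA line, 15.5 in the ABL2 shRNA line and 11.3 in the double knockdown. Its log2 ratios were -1.40 (-1.72 to -1.08), -0.64 (-0.91 to -0.37) and -1.09 (-1.40 to -0.79). For these genes the lines with the ABL1 hairpin stood farther from shCtrl than the line with ABL2 shRNA alone. KLF2 was thus 1 of 10 genes over 2-fold above shCtrl with ABL1 shRNA, beside 4.86% of all genes with at least 10 counts, and with both shRNAs, beside 4.46%. KLF11 was 1 of 10 over 2-fold below shCtrl with ABL1 shRNA, beside 4.02%, and with both, beside 3.27%. None of the 10 was over 2-fold from shCtrl in either direction with ABL2 shRNA alone, beside 7.70% of all genes. In an alternative edgeR fit of all 8 samples, which assumes that each lone shRNA sample varies like the DMSO and Ponatinib pairs, 4 of the 10 genes had an adjusted p under 0.05 with ABL1 shRNA, beside 22.0% of 18275 genes, 6 with ABL2 shRNA, beside 15.6%, and 6 with both, beside 17.8%.

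The other members stayed within 2-fold of shCtrl. The levels of KLF9 were 38.4 CPM in shCtrl, 62.1 in the ABL1 shRNA line, 64.4 in the ABL2 shRNA line and 52.6 in the double knockdown, above shCtrl in each line by log2 ratios of 0.69 (0.52 to 0.86), 0.75 (0.58 to 0.92) and 0.45 (0.28 to 0.63). KLF6 was at 273, 237, 179 and 198 CPM in the same order, below shCtrl in each line, most with ABL2 shRNA (-0.61, -0.69 to -0.53). KLF4 was at 81.0, 116, 76.7 and 102 CPM. It was above shCtrl with the ABL1 hairpin, by 0.51 (0.39 to 0.63) alone and 0.33 (0.20 to 0.45) in the double knockdown, and not with ABL2 shRNA alone (-0.08, -0.21 to 0.05). KLF3 was at 67.0, 79.4, 51.2 and 57.2 CPM, above shCtrl with ABL1 shRNA (0.25, 0.11 to 0.38) and below it in the ABL2 shRNA line (-0.39, -0.54 to -0.23) and the double knockdown (-0.23, -0.38 to -0.08). KLF5 was at 34.5, 33.1, 24.4 and 29.2 CPM, lowest with ABL2 shRNA (-0.50, -0.72 to -0.28). KLF10 was at 98.1, 118, 116 and 120 CPM, and KLF13 at 88.9, 98.7, 98.1 and 100.2 CPM. Both lay slightly above shCtrl in every line, by 0.24 to 0.29 and by 0.14 to 0.17 on the log2 scale. KLF7, at 25.04, 27.4, 27.01 and 24.7 CPM, differed from shCtrl by less than the counting error in each line.

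**Figure D4:**
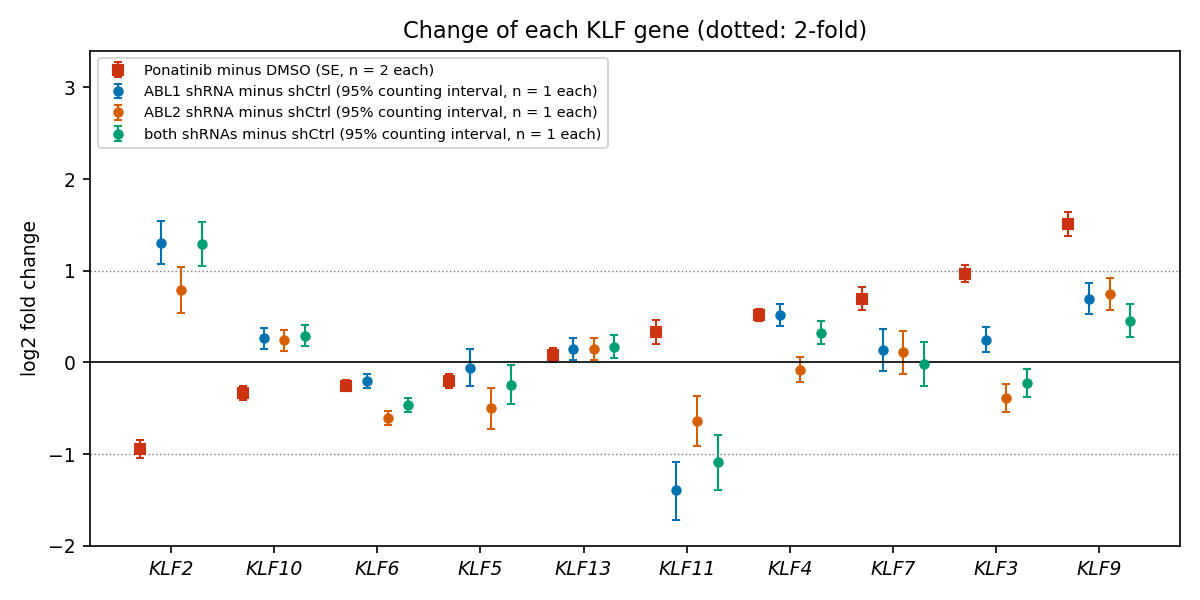
Log2 fold changes of the 10 KLF genes after Ponatinib treatment (red squares, SE derived from the F statistic, n = 2 each) and log2 ratios of the 3 knockdowns to shCtrl (circles, 95% counting intervals, n = 1 each), with dotted lines at 2-fold. KLF2 lies at -0.94 for Ponatinib and between 0.79 and 1.30 for the knockdowns, KLF11 at 0.33 and between -1.40 and -0.64, and KLF9 above 0 in all 4.

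Side by side, KLF9, KLF6, KLF5 and KLF13 had the same sign with Ponatinib and in every knockdown. The Ponatinib and knockdown comparisons do not share control samples, although the knockdowns share shCtrl among themselves. The share of all genes that keep 1 sign in this way was not computed. KLF9 was higher with Ponatinib (1.51) and above shCtrl in every knockdown (0.45 to 0.75), and KLF6 was lower with Ponatinib (-0.25) and below shCtrl in every knockdown (-0.61 to -0.20). KLF5 (-0.20, and -0.50 to -0.06) and KLF13 (0.08, and 0.14 to 0.17) also kept 1 sign but did not pass the test with Ponatinib. The counting interval of KLF5 with ABL1 shRNA (-0.26 to 0.14) holds both signs, and the DMSO and Ponatinib samples of KLF13 overlapped. KLF4, at 0.52 with Ponatinib, was at 0.51 and 0.33 in the lines with the ABL1 hairpin and at -0.08 with ABL2 shRNA alone. KLF2 was lower with Ponatinib (-0.94) and above shCtrl in every knockdown (0.79 to 1.30), and KLF10 had the same signs as KLF2 (-0.34, and 0.24 to 0.29). KLF11, which did not pass the test with Ponatinib (0.33), was below shCtrl in every knockdown. KLF3 and KLF7, which rose by 0.97 and 0.70 with Ponatinib, were between -0.39 and 0.25 in the knockdowns. The difference between the treatments was not tested, since the knockdowns have 1 sample each.

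The genes whose 4 changes (Ponatinib and the 3 knockdowns) lay nearest to those of KLF9 among 13752 genes were ENSG00000276952, ZMIZ1-AS1 and the interferon-stimulated gene IFIT1, at Euclidean distances of 0.336, 0.355 and 0.356 on the log2 scale. IFIT1 went from 29.4 and 30.4 CPM to 83.2 and 83.2 with Ponatinib. ENSG00000276952, at 0.618 and 0.606 CPM in DMSO, and ZMIZ1-AS1, at 1.68 and 1.82 CPM, were low. Nearest to KLF2 were RHOF, the neurotrophin receptor NGFR and the EGFR ligand TGFA, at distances of 0.310, 0.339 and 0.350. RHOF, at 7.33 and 6.26 CPM in DMSO, and NGFR, at 2.56 and 2.12 CPM, were low. TGFA was at 49.3 and 53.6 CPM with DMSO and 22.9 and 20.9 with Ponatinib, and its log2 ratios in the knockdowns were 1.34, 0.91 and 1.11.

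Lists of genes that bind, control or respond to KLFs were read from the same Ponatinib fit. Of 19 cofactors and ubiquitin ligases, 3 rose, 3 fell and 13 did not pass the test, with a median log2 fold change of 0.04. These counts were near the shares over all genes tested, of which 15.0% rose and 15.7% fell. CTBP2, a partner of KLF3, rose from 74.4 and 69.7 CPM to 111 and 107 (log2 fold change 0.60, SE 0.07, edgeR adjusted p = 1.01e-05), while CTBP1 missed the threshold (-0.07, edgeR adjusted p = 0.449). SIN3A, the partner of KLF9 and KLF10, rose by 0.43 (SE 0.07, edgeR adjusted p = 0.000398). With the knockdowns, WWP1, a ubiquitin ligase known to act on KLF2 and KLF5, was at -1.16 in the ABL1 shRNA line, -0.21 in the ABL2 shRNA line and -0.89 in the double knockdown on the log2 scale, and was the only gene of this list over 2-fold from shCtrl in any of them. Among all genes with at least 10 counts, 4.02% were over 2-fold below shCtrl with ABL1 shRNA.

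Of 27 genes known to act upstream of KLF genes, 5 rose, 9 fell and 13 did not pass the test after Ponatinib treatment, with a median log2 fold change of -0.06. Beside this, 15.0% of all genes tested rose and 15.7% fell. The early response factors FOS, EGR1 and JUN fell by 2.75, 2.31 and 2.18 on the log2 scale (edgeR adjusted p = 4.77e-05, 3.44e-07 and 1.39e-11). EGR1 was at 14.7 and 16.0 CPM with DMSO and 2.65 and 3.63 with Ponatinib, and FOS had only 4 and 8 counts in the Ponatinib samples. ELK3 and MYC fell by 1.13 and 0.85, and the TGF-β receptor TGFBR2 by 0.59. FOXO1, a forkhead factor known to activate KLF2 in lymphocytes, rose by 1.04 (SE 0.16, edgeR adjusted p = 0.000128), from 9.09 and 7.78 CPM to 15.8 and 19.3. The glucocorticoid receptor NR3C1, the known inducer of KLF9, rose by 0.52 (SE 0.07, edgeR adjusted p = 7.75e-05). In the pathway known to induce KLF2 through MEF2 factors, MAPK7 (ERK5) was at -0.21 and MAP2K5 at 0.20, with MEF2A at 0.03, MEF2C at 0.08 and MEF2D at 0.15, and none of these reached the threshold (edgeR adjusted p from 0.188 to 0.886). Of the MAP3K genes in the same list, MAP3K2 rose by 0.47 (SE 0.09, edgeR adjusted p = 0.000645). MAP3K3 was at 0.02 and did not pass (edgeR adjusted p = 0.832). NR3C1, SIN3A, CTBP1, WWP1, MAP3K2, MAP3K3 and the genes of the ERK5 pathway were named after their values were seen. EGR1 was above shCtrl in each knockdown, by log2 ratios of 0.70 (ABL1 shRNA), 0.86 (ABL2 shRNA) and 0.86 (both). In the same order FOS was at 0.78, 0.45 and 1.08, with 49 counts in shCtrl, and JUN at -0.13, 0.09 and 0.02. MEF2C was below shCtrl in each line, at -0.75, -0.95 and -1.07. Of the 27 genes, 0 were past 2-fold with ABL1 shRNA and 1, TGFBR2 (1.18), with ABL2 shRNA, beside 7.70% of all genes. With both, 1 was above (FOS) and 1 below (MEF2C), beside 4.46% and 3.27% of all genes.

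Of 34 genes known as targets of KLFs in other cells, 25 were tested, of which 9 rose, 8 fell and 8 did not pass the test, with a median log2 fold change of 0.06. Beside this, 15.0% of all genes tested rose and 15.7% fell. The cyclin CCND2 rose by 2.60 on the log2 scale, the cell cycle inhibitor CDKN1C by 1.70, the lipid receptor S1PR1 by 1.58, TXNIP by 1.45 and ATF3 by 1.07 (edgeR adjusted p from 3.21e-09 to 0.000137). S1PR1, a known target of KLF2 in T cells, was at 3.36 and 2.22 CPM with DMSO and 8.63 and 8.31 with Ponatinib. The cyclin CCND1 fell by 1.61 on the log2 scale, the growth factor PDGFA by 1.25, the urokinase gene PLAU by 0.97 and SNAI2, a factor of mesenchymal cells, by 0.69 (edgeR adjusted p from 4.55e-11 to 0.000145). CCND1 was at 968 CPM in each DMSO sample and at 318 in each Ponatinib sample. THBD, the thrombomodulin gene that KLF2 activates in endothelium, did not change detectably (-0.04, SE 0.08, edgeR adjusted p = 0.778), and in the knockdown experiment was at 52.8 CPM in shCtrl, 60.4 in the ABL1 shRNA line, 115 in the ABL2 shRNA line and 72.8 in the double knockdown. NOS3, another endothelial target of KLF2, and CCL5, a target of KLF13, had at most 4 counts. THBD, NOS3 and CCL5 were named after their values were seen. Of 26 targets with at least 10 counts, 2 were over 2-fold above shCtrl and 2 below with ABL1 shRNA. With ABL2 shRNA, 1 of 25 was above (THBD) and 1 below, and with both, 2 of 26 were above and 4 below. Of all genes, 4.86% were above and 4.02% below with ABL1 shRNA, and 4.46% above and 3.27% below with both. With ABL2 shRNA 7.70% were past 2-fold either way.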

How the data were processed

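RNA-seq of LM2 cells was analysed in 8 samples, 2 with DMSO, 2 with Ponatinib and 1 for each of 4 shRNA lines. The deposited values are raw counts per Ensembl gene, which the authors made by aligning reads to hg38 with TopHat and counting with HTSeq 0.6.0, according to the submitters' processing notes. The counting settings on strand are not given in the sources used here, and the library kit does not mark strand, so overlapping and antisense genes cannot be told apart. Rows that name no gene were left out of totals and tests. In the shRNA files, 9.48% to 9.90% of counts were on no feature and 6.12% to 6.32% were ambiguous. Gene symbols came from GENCODE for 54836 of 58688 IDs.

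Ponatinib was compared with DMSO in R 4.3.3 with edgeR 4.0.16 (filterByExpr with a minimum count of 10, TMM, quasi-likelihood test, prior count 0.125, Benjamini-Hochberg adjustment over 16031 genes). This test gives no SE, so each SE is the size of the log2 fold change divided by the square root of F. The SEs of DESeq2's Wald fit were larger for each KLF gene examined. They were 0.155 against 0.0936 for KLF2 and 0.203 against 0.13 for KLF9. On simulated data the edgeR fit recovered 199 of 200 changed genes and also called 27 unchanged genes. Unchanged genes were thus a larger share of the calls than the 0.05 threshold allows, so adjusted p-values near 0.05 are less firm than they read. Knockdowns were compared with shCtrl as ratios of TMM-scaled CPM, with exact conditional binomial 95% intervals, and Wilson 95% intervals for single levels. Reads carry no molecular identifiers, so these intervals cover counting error only. A gene was counted past 2-fold with at least 10 counts in one of the samples compared.

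The KLF genes, the lists and the tests were chosen with earlier results of these data known, so they are no independent support. The text names all 10 KLF genes, the other KLF and SP genes called or at 0, list genes called with a fold over 1.5 (at most 10 per list, by size), ABL1, ABL2, cell type markers, and the 3 genes nearest to the member with the largest rise and to that with the largest fall. A list gene that this rule would name is not reported here. Replicates correlated at 0.996 (DMSO) and 0.994 (Ponatinib) across 14715 genes. Their chi-square per degree of freedom, a measure of spread beyond counting error, was 1.44 for DMSO and 3.12 for Ponatinib. The Ponatinib samples thus differed more from each other than the DMSO samples did. Alternatives were DESeq2 1.42.0, other scalings, filters, prior counts and call rules, a replicate block and leaving out each sample.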

Additional observations from a re-analysis of the deposited data

How the results depend on the processing

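Among the 10 KLF genes, 96 of the recomputed Ponatinib changes kept their direction and side of the threshold, 3 no longer passed and 1 newly passed, as given for KLF6, KLF10 and KLF11. All 90 recomputed knockdown ratios moved by less than their counting intervals. Each scaling shifts every ratio of a comparison alike, by at most 0.0467 on the log2 scale, so these are not 90 separate checks. Under a fold over 2 with an unadjusted p under 0.05, 1 KLF gene was called (1 rose and 0 fell), 2 other KLF and SP genes, 0 cofactors, 5 upstream genes, 8 targets and 878 of all genes. With DESeq2's Wald test 2 other KLF and SP genes and 2809 of all genes were called. Leaving out each sample in turn, 5 to 8 KLF genes were called (4 to 5 rose and 1 to 3 fell, with 1 fall without DMSO replicate 2), 2 to 4 other KLF and SP genes (2 without DMSO replicate 1), 3 to 10 cofactors (3 without either DMSO sample and 10 without Ponatinib replicate 1), 11 to 16 upstream genes, 14 to 19 targets and 2800 to 5744 of all genes (2800 without DMSO replicate 1 and 3242 without DMSO replicate 2). Where the 8 samples were fitted together in edgeR, assuming that each lone shRNA sample varies like the DMSO and Ponatinib pairs, 4, 6 and 6 KLF genes had an adjusted p under 0.05 with ABL1 shRNA, ABL2 shRNA and both, beside 22.0%, 15.6% and 17.8% of all genes in that fit. The 2, 0 and 2 genes past 2-fold come from a fold threshold without a test, so the counts are not alike in kind. The cause of these shifts was not tested.

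Deviations of same-numbered samples from their group means correlated at 0.0257, and the main fit did not pair them. The labels do not say whether same-numbered samples were processed together, and this correlation cannot decide it. With the replicate number as a block, 7 KLF genes (4 rose, 3 fell) and 4984 of all genes were called, and no call of a KLF gene changed. Other scalings moved the median knockdown ratio by at most 0.0467 on the log2 scale. With 1 sample per knockdown, only counting error is known.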
